A study of Arabidopsis thaliana with 12 samples.

Results

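PSBY, PSBW and PSB27 encode small proteins of photosystem II, and their transcripts were compared between the tpt1 mutant and wild-type (WT) plants of Arabidopsis thaliana. They were taken as the spots that the platform annotation assigns to 1 gene, that gene being PSBY (AT1G67740), PSBW (AT2G30570) or PSB27 (AT1G03600). The rule found 3 spots of 3439, 1 for each gene, and no spot shared by one of them with other genes. The study measured total RNA of 6 tpt1 and 6 WT samples, numbered 1 to 6 in each group, on an expression array. Every sample was of ecotype Wassilevskija, and tpt1 plants are described in the labels as having triose phosphate transport activity below 5% in their chloroplasts. The sources used here do not name the lesion in tpt1, the tissue, the age or the growth of the plants. They also leave unsaid if each sample is a plant or culture of its own, so the p-values measure the spread between these samples, which may be technical.

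Photosystem II is the complex of the thylakoid membrane that uses light to take electrons from water. Its reaction centre proteins are made in the chloroplast, while many of its small and peripheral subunits, these 3 among them, are encoded in the nucleus and imported. PSBY is made as a precursor that is cut into short peptides with a membrane span, which lie at the edge of the core near cytochrome b559. PSBW is a subunit with a membrane span, found in plants and green algae, that helps to hold the antenna to the core. PSB27 is a protein of the thylakoid lumen that binds photosystem II while it is assembled or repaired and is absent from the finished complex. The triose phosphate/phosphate translocator, reduced in its activity in tpt1, carries the products of carbon fixation out of the chloroplast.

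The deposited spot intensities ran from 0 to 100. Their medians differed between the groups, at -1.42 to -0.88 on the log2 scale in tpt1 samples and -2.38 to -1.72 in WT samples. The number of arrays limits the precision of each group mean and of each change. Within a group, samples with neighbouring numbers (1 and 2, 3 and 4, 5 and 6, called sets 1, 2 and 3 here) had medians 0.0063 to 0.0497 apart, while samples of different sets lay 0.165 to 0.667 apart. A log2 change (tpt1 minus WT) is therefore given on 3 scales. These are the intensities as deposited, the same after each array was centred on its median, and the values after quantile normalization, which gives every array the same distribution and served for the main test. The median change of the 2849 tested spots was 0.86 on the deposited scale, 0.00 after median centring and 0.08 after quantile normalization, so a change of 0 on the deposited scale is a fall relative to most of the array. All 3 genes were tested, and all had readings above 0 in all 12 samples.

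PSBY was lower in tpt1 than in WT on each of the 3 scales. Its deposited intensity was 1.34, 1.29, 1.36, 1.25, 1.22 and 1.21 in tpt1 samples 1 to 6, against 2.31, 2.25, 2.07, 2.02, 2.23 and 2.14 in WT samples 1 to 6. The groups did not overlap, and within a group the highest sample was 1.13 times the lowest in tpt1 and 1.14 times in WT. Of the tested spots, 1.58% had all tpt1 samples below all WT samples on the deposited scale, and 4.11% did after quantile normalization. On the deposited scale PSBY fell by 0.76 in log2 (SE 0.09, limma adjusted p = 4.2e-05, n = 6 and 6), where 2.56% of spots were called lower and 46.4% higher. After quantile normalization it averaged 0.11 ± 0.09 in tpt1 and 1.19 ± 0.15 in WT (log2 intensity, mean ± SD, n = 6 each), and it fell by 1.08 (95% interval -1.31 to -0.85, limma adjusted p = 3.28e-05), where 6.39% of spots were called lower. After median centring it fell by 1.63 (limma adjusted p = 1.24e-05), where 12.5% of spots were called lower. In bulk RNA, fewer cells that express the gene and less of its RNA per cell cannot be told apart.

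**Figure D1:**
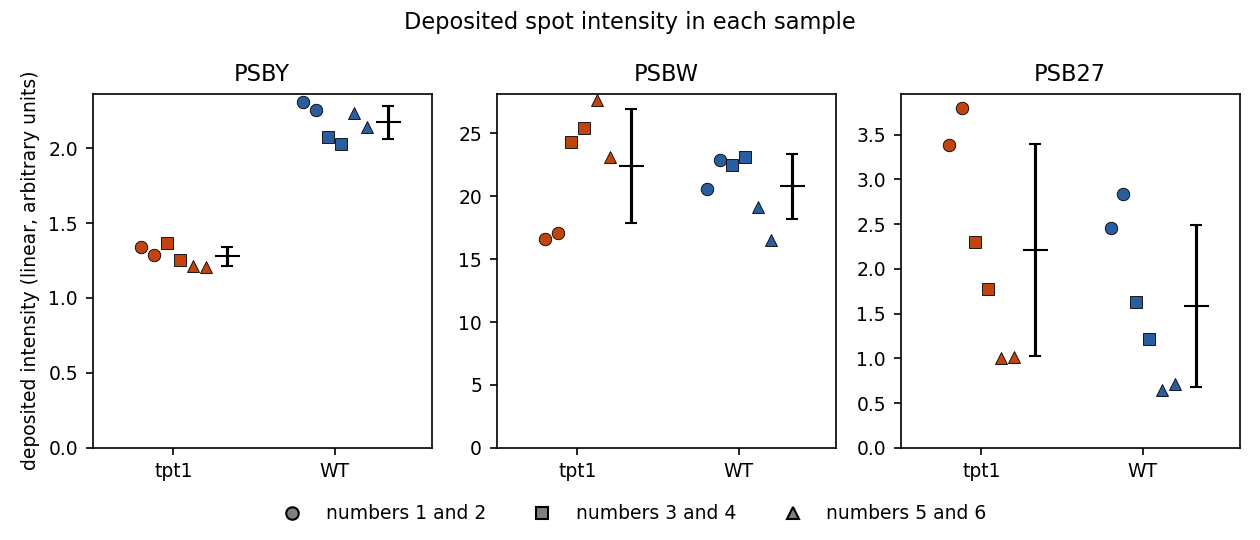
Deposited spot intensity (linear, arbitrary units) of PSBY, PSBW and PSB27 in each tpt1 (left) and WT (right) sample; symbols mark sets of neighbouring sample numbers, and the bar beside each group is the mean ± SD of 6 samples. PSBY lies between 1.21 and 1.36 in tpt1, all below WT at 2.02 to 2.31, while PSB27 descends from set 1 to set 3 in both groups.

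The fall of PSBY differed little among the sample numbers. The ratio of tpt1 to WT was between 0.545 and 0.659 in each of the 6 pairs of samples with the same number, on the deposited scale. Of the spots with all values, 4.83% were lower in tpt1 in 6 of 6 pairs. By set the deposited log2 change was -0.79 in set 1, -0.65 in set 2 and -0.85 in set 3. A limma F test of a difference of the change among sets did not pass after adjustment over all spots (adjusted p = 0.158 after quantile normalization and 0.488 on the deposited scale). The spread of PSBY around its group means was 0.12 in log2 after quantile normalization, against a median of 0.51 over the tested spots, and only 0.737% of those spots had a smaller one.

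The place of PSBY in the order of brightness also differed, and this order is the same on any scale that keeps the ranks of an array. PSBY was the 320th to 416th brightest of all spots in tpt1 samples, against 125th to 161st in WT samples. As a percentile among tested spots it averaged 86.9 ± 1.19 in tpt1 and 94.99 ± 0.48 in WT (SD, n = 6 each), a difference of -8.11 points (two-sided exact permutation test, p = 0.00216, the smallest that 6 against 6 samples allow). Exchanging the groups within sample numbers instead gave an exact p of 0.0312, the smallest that 6 numbers allow. The percentiles of the groups did not overlap, as was so in this direction for 4.98% of tested spots. PSBY belonged to the 712 brightest of the tested spots (the top class of 4 equal ones), whose median deposited log2 change was 0.48, so its fall on the deposited scale ran against the median of spots of like brightness.

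**Figure D2:**
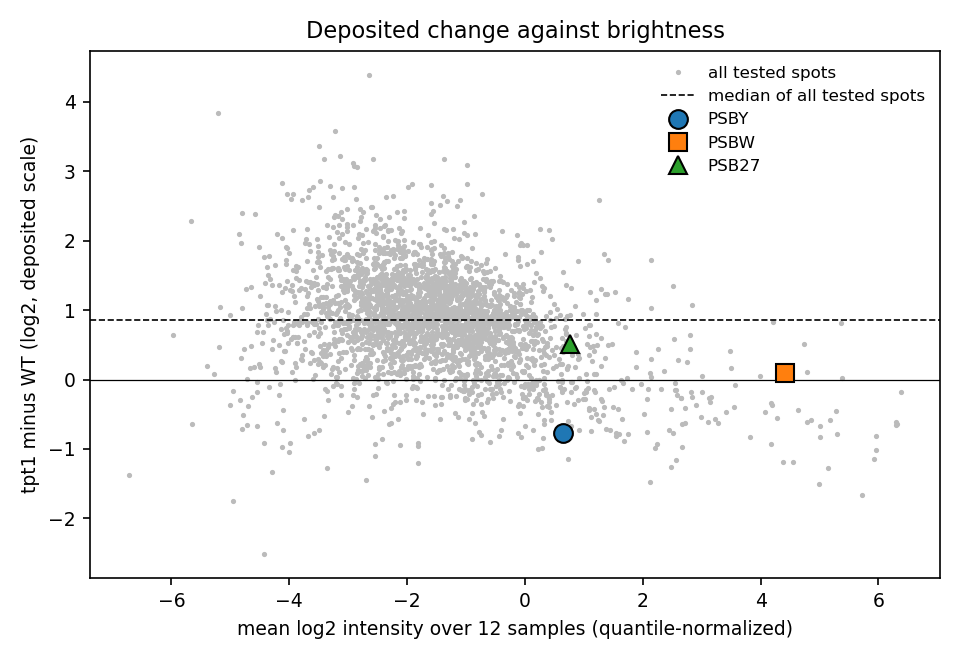
Log2 change on the deposited scale (tpt1 minus WT, vertical axis) against the mean log2 intensity over 12 samples after quantile normalization (horizontal axis) for the 2849 tested spots; the dashed line is their median of 0.86. PSBY lies at -0.76 at the lower edge of spots of like brightness, PSB27 at 0.51, and PSBW at 0.09 among the brightest spots.

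PSBW was one of the brightest spots of the array in both groups, and its change depended on the samples and the scale. Its deposited intensity was 16.6, 17.1, 24.4, 25.5, 27.6 and 23.2 in tpt1 samples 1 to 6, against 20.6, 22.9, 22.5, 23.1, 19.2 and 16.6 in WT samples 1 to 6. The ranges overlapped, with tpt1 samples 1 and 2 below their WT partners and samples 3 to 6 above theirs. The log2 change was 0.09 on the deposited scale (SE 0.15, limma adjusted p = 0.628) and 0.48 after quantile normalization (95% interval 0.02 to 0.95, limma adjusted p = 0.171). After median centring PSBW fell by 0.77 (SE 0.22, limma adjusted p = 0.0258), where 12.5% of spots were called lower. With the set fitted as a block, the quantile-normalized change was called higher (limma adjusted p = 0.0299), as were 16.7% of spots. Without set 1 it was also called higher (0.79, limma adjusted p = 0.0417), as were 3.95% of the spots tested there. With neighbours averaged and the set as a block it did not pass (limma adjusted p = 0.297).

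The change of PSBW differed among the 3 sets. On the deposited scale the log2 change was -0.37 in set 1, 0.13 in set 2 and 0.51 in set 3, which are ratios of tpt1 to WT of 0.776, 1.09 and 1.42. After quantile normalization it was -0.10, 0.58 and 0.98 in the same order, and after median centring -1.20, -0.68 and -0.44. The order of the sets was thus alike on the 3 scales, although the sign was not. A limma F test of the interaction of genotype and set, added after this pattern had been seen, gave adjusted p = 0.000925 after quantile normalization, 0.0128 on the deposited scale and 0.0326 after median centring. These tests called 5.83%, 5.44% and 5.09% of all tested spots on the 3 scales. They take samples of neighbouring numbers as independent, and would give too small a p if those were repeats of 1 RNA.

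In brightness, PSBW was the 13th to 31st spot in tpt1 samples and the 26th to 29th in WT samples. Its percentile averaged 99.26 ± 0.28 in tpt1 and 99.06 ± 0.04 in WT (SD, n = 6 each; two-sided exact permutation test, p = 0.119). Without tpt1 sample 1 or without tpt1 sample 2 this p was 0.0325. PSBW was among the 29 brightest spots, the top 1% of those tested, and the median deposited log2 change of these was -0.62. Its own 0.09 therefore lay above the median of the brightest spots and below the 0.86 of all tested spots. Whether the bright end of the scale took part in the change of PSBW was not tested.

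PSB27 varied more between sets than between the groups. Its deposited intensity was 3.38, 3.8, 2.3, 1.77, 1 and 1.02 in tpt1 samples 1 to 6, against 2.46, 2.84, 1.63, 1.22, 0.643 and 0.719 in WT samples 1 to 6. The mean of set 1 was 3.56 times that of set 3 in tpt1 and 3.89 times in WT, and the ranges of the groups overlapped. The sample medians moved the same way, set 1 being the highest and set 3 the lowest in each group. After median centring, which removes them, PSB27 was at 2.73 in set 1 and 1.43 in set 3 of tpt1, and at 3.13 and 1.80 in the same sets of WT (log2). Its spread around the group means after quantile normalization was 0.79, and 75.7% of tested spots had a smaller one.

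Within a sample number, however, the difference of PSB27 between tpt1 and WT was narrow. The ratio of tpt1 to WT was 1.38, 1.34, 1.42, 1.45, 1.56 and 1.42 for numbers 1 to 6 on the deposited scale, higher in tpt1 in 6 of 6 pairs. That was so for 68.6% of the spots with all values. Without regard to the numbers the log2 change was 0.51 (SE 0.44, limma adjusted p = 0.335) on this scale. With a block for each sample number the SE was 0.07 and PSB27 was called higher (limma adjusted p = 0.000129), as were 71.2% of the tested spots. Relative to the median of each array it was lower in tpt1 in 6 of 6 pairs, at -0.41 to -0.28 in log2. The share of spots lower in all pairs on this scale was not counted. PSB27 belonged to the 712 brightest spots, whose median change on this scale was -0.38. The unblocked test of the PSB27 change of -0.35 gave a limma adjusted p of 0.522. The blocked test called PSB27 lower (limma adjusted p = 0.00195), where 21.4% of spots were.

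After quantile normalization PSB27 had a log2 change of 0.22 (95% interval -0.64 to 1.08, limma adjusted p = 0.776). By number it was higher in tpt1 for numbers 1 to 4 (0.29 to 0.52) and lower for numbers 5 and 6 (-0.15 and -0.23), and the block did not bring it past the threshold (limma adjusted p = 0.178). The position of PSB27 in brightness ran from 95th to 504th in tpt1 samples and from 122nd to 417th in WT samples, with percentiles of 90.9 ± 6.73 in tpt1 and 91.1 ± 4.39 in WT (SD, n = 6 each; two-sided exact permutation test, p = 0.935). The direction of the PSB27 difference thus depended on the scaling, and its narrow range over sample numbers was found on the deposited and the median-centred scales.

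**Figure D3:**
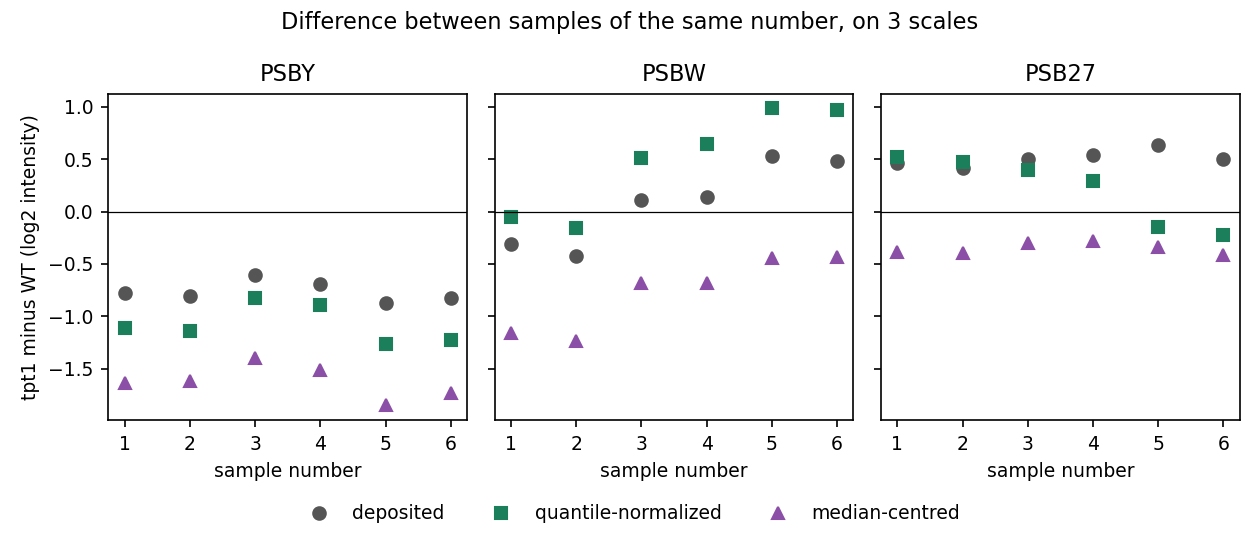
Log2 difference (tpt1 minus WT) between samples of the same number, for each gene on the deposited, quantile-normalized and median-centred scales. PSBY is below 0 in all 6 numbers on each scale, PSBW climbs from set 1 to set 3 on each scale, and PSB27 stays within 0.42 to 0.64 on the deposited and -0.41 to -0.28 on the median-centred scale.

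Differences between 2 spots of the same array do not depend on a scale factor of that array, and they showed unequal change of PSBY and PSBW. The log2 intensity of PSBY minus that of PSBW averaged -4.1 ± 0.35 in tpt1 and -3.25 ± 0.22 in WT (SD, n = 6 each), lower in tpt1 by 0.38 to 1.4 in the 6 pairs. The groups did not overlap (difference -0.85, two-sided exact permutation test, p = 0.00216, adjusted over the 3 pairs of genes p = 0.00649). On this scale PSBY itself changed by -0.76 and PSBW by 0.09, so most of the difference was the fall of PSBY. The share of other spot differences that separate the groups was not counted. PSBY minus PSB27 averaged -0.60 ± 0.77 in tpt1 and 0.67 ± 0.87 in WT (difference -1.27, two-sided exact permutation test, p = 0.026, adjusted p = 0.039). The ranges overlapped because PSB27 varied with the set, while within numbers the difference lay between -1.51 and -1.1. Leaving out 1 sample ended this call for 8 of the 12 samples, namely tpt1 1 to 4 and WT 3 to 6 (adjusted exact p up to 0.0844). PSBW minus PSB27 averaged 3.5 ± 1.1 in tpt1 and 3.92 ± 0.77 in WT (difference -0.42, two-sided exact permutation test, p = 0.444). It was lower in tpt1 in 6 of 6 pairs, from -0.84 to -0.02, but after quantile normalization the difference was 0.26. The share of other spot differences lower in 6 of 6 pairs was not counted. On the deposited scale, exchanging the groups within sample numbers gave an adjusted exact p of 0.0312 for each of the 3 pairs of genes, the smallest possible. With neighbouring numbers averaged, the exact p was 0.25 for each of the 3 pairs, the smallest that 3 sets allow. The 29 brightest spots, PSBW among them, had a median deposited log2 change of -0.62. An effect of brightness on the scale would not cancel in a difference that involves PSBW, and whether there was one was not tested.

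**Figure D4:**
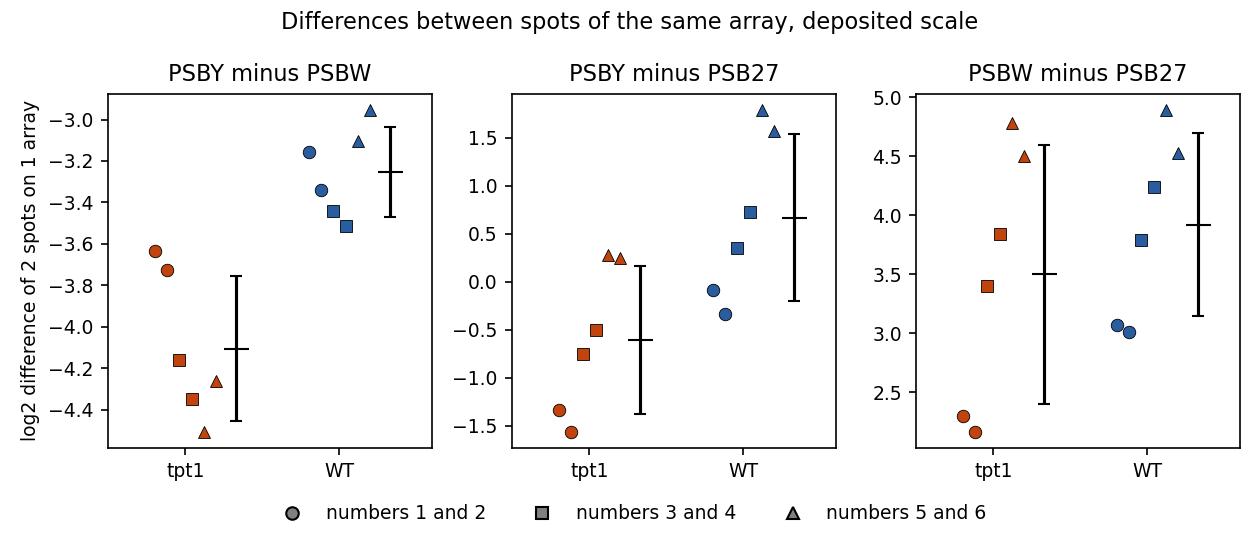
Difference in deposited log2 intensity between 2 spots of the same array, for the 3 pairs of genes, in tpt1 (left) and WT (right) samples; symbols mark the sets, and the bar is the mean ± SD of 6 samples. PSBY minus PSBW separates the groups, and the other pairs run from set 1 (lowest) to set 3 (highest) in both groups.

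Among samples of a group, the likeness of the 3 genes to each other depended on the scale. After subtraction of the group means and quantile normalization, Pearson r over the 12 samples was -0.86 for PSBW and PSB27, 0.40 for PSBY and PSBW and -0.43 for PSBY and PSB27. On the deposited scale the same r were -0.22, -0.37 and 0.55. The 12 points share 3 sets, and each gene pair shares its arrays, so these r and those that follow are descriptions only.

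Of 475 other genes with a spot of their own and values in all samples, AT5G35100 (r = 0.94), AT3G59980 (r = 0.92) and AT4G07670 (r = 0.90) were most like PSB27 in level after quantile normalization. On the deposited scale their r with PSB27 was 0.91, 0.88 and 0.93. In deviations from the group means the closest to PSB27 were AT1G01080 (r = 0.96, and 0.98 on the deposited scale), AT5G50350 (r = 0.95 and 0.94) and AT2G28540 (r = 0.95 and 0.97). The r of these genes with PSB27 was thus high on both scales, but they were picked as the closest of 475. Their values by set were not compared with those of PSB27.

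The closest genes to PSBY and PSBW were less stable between scales. For PSBY in level they were AT5G14590 (r = 0.90), AT3G14890 (r = 0.90) and AT1G49850 (r = 0.89), with r of 0.46, 0.26 and 0.65 on the deposited scale. In deviations they were AT1G30700 (r = 0.83), AT2G15440 (r = 0.82) and AT3G50880 (r = 0.80), with r of 0.24, 0.02 and 0.17 on the deposited scale. For PSBW in level they were AT2G32040 (r = 0.94), APS4 (r = 0.93), which encodes an ATP sulfurylase of sulfate assimilation, and AT2G46850 (r = 0.91), with r of 0.39, 0.32 and 0.32 on the deposited scale. In deviations they were AT2G32040 (r = 0.95), the plastid ribosomal protein gene AT4G01310 (r = 0.93) and AT1G17160 (r = 0.92), with r of 0.74, 0.64 and 0.60 on the deposited scale.

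The lists of photosynthesis genes gave 4 other genes with a test, and after quantile normalization LPA19 was called higher, RBD1 lower and 2 did not pass. Together, lists of 102 genes of the photosystems, their antennae, their assembly and electron transport had 7 found with a spot of their own. PSBY, PSBW and PSB27 were among these 7, and all were tested. After quantile normalization 1 of the 7 was called higher, 2 lower and 4 did not pass, against 6.39% of all tested spots in each direction, and their median log2 change was -0.12 against 0.08 for all tested spots. The count depended on the scale. After median centring 1 was called higher, 5 lower and 1 did not pass, against 4.67% of all tested spots called higher and 12.5% lower. The median of the 7 was then -0.84, against 0.00 for all tested spots and -0.38 for the 712 brightest. Without PSBY, PSBW and PSB27, 1 was called higher and 3 lower. On the deposited scale 1 was called higher, 3 lower and 3 did not pass, against 46.4% of all tested spots higher and 2.56% lower. The median of the 7 there was 0.026 against 0.86. Without PSBY, PSBW and PSB27, 1 was called higher, 2 lower and 1 did not pass. Of the 29 genes for assembly and repair of photosystem II 3 were tested, 1 of them higher, 1 lower, and PSB27 not called. Of the 27 genes for its subunits PSBY fell and PSBW did not pass, and for the rest no spot of their own was found. None was found either for the 14 genes of electron transport and ATP synthase and the 9 markers of root and seed. The tissue could thus not be checked from them. Of the 111 listed genes 15 were absent from the annotation used for names, so a spot of these could not be found if present.

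LPA19, the other protein of the Psb27 family, which acts in Arabidopsis in the maturation of the D1 reaction centre protein, rose in tpt1. Its deposited intensity was 0.285 to 0.439 (median 0.38) in tpt1 samples and 0.0783 to 0.127 (median 0.102) in WT samples. The groups did not overlap, as was so in this direction for 28% of tested spots on the deposited scale and 5.27% after quantile normalization. LPA19 rose 3.53-fold on the deposited scale (log2 change 1.82, SE 0.22, limma adjusted p = 5.62e-05). There 46.4% of spots were called higher and the median change was 0.86. It rose 1.89-fold after quantile normalization (0.92, SE 0.21, limma adjusted p = 0.0117), where 6.39% of spots were called higher. After median centring it rose 1.94-fold (0.96, limma adjusted p = 0.00652), where 4.67% were. Its WT readings were near 0.1. With zeros kept and a pseudocount of 0.1, the quantile-normalized change was 0.51 (limma adjusted p = 0.0241). The LPA19 call held in each fit that left out 1 sample (limma adjusted p up to 0.0336). It was lost with neighbours as a random block (0.135), with neighbours averaged and the set as a block (0.0595), without set 1 (0.0982) and without set 2 (0.0585). The 2 genes of the Psb27 family thus differed in call in the main test, and a difference between their changes was not tested.

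RBD1, a rubredoxin of the thylakoid membrane needed to assemble photosystem II, was at 0.311 to 0.432 (median 0.361) in tpt1 samples and 0.229 to 0.465 (median 0.375) in WT samples as deposited. The ranges overlapped, with a deposited log2 change of 0.026 (limma adjusted p = 0.91). Relative to the rest of the array it fell by 0.83 after quantile normalization (SE 0.24, limma adjusted p = 0.0386) and by 0.84 after median centring (limma adjusted p = 0.032). Of all tested spots 6.39% and 12.5% were called lower in these fits. Leaving out 1 sample ended the RBD1 call for 9 of the 12 samples, all but tpt1 5, tpt1 6 and WT 3 (limma adjusted p up to 0.0797). It was also lost with neighbours as a random block (0.234), with neighbours averaged and the set as a block (0.0504), and without set 1 (0.162), set 2 (0.0672) or set 3 (0.0629). The antenna gene LHCB1.5 was at 17.7 to 45.4 in tpt1 samples and 48.6 to 53.4 in WT samples, with a log2 change of -0.12 after quantile normalization (limma adjusted p = 0.743). It was called lower on the deposited scale (-0.78, limma adjusted p = 0.0166), as were 2.56% of spots. After median centring LHCB1.5 was also called lower (-1.64, limma adjusted p = 0.00024), as were 12.5% of spots. The median change of the 29 brightest spots was -0.62 on the deposited scale and -1.48 after median centring. Without set 3 the quantile-normalized change of LHCB1.5 was 0.062. PSAN, a lumenal subunit of photosystem I, was at 3.82 to 8.76 in tpt1 samples and 7.02 to 9.75 in WT samples, with a log2 change of -0.45 (limma adjusted p = 0.13; 0.0437 with a block for each sample number, where 14.3% of spots were called lower). With neighbours averaged and the set as a block the PSAN change did not pass (limma adjusted p = 0.201). With the set as a block and no averaging PSAN was called lower (limma adjusted p = 0.0228), as were 390 of 2849 spots. Without set 1 its change was -0.68 (limma adjusted p = 0.00801), where 94 of 2456 spots were called lower. PSAN was called lower in 8 of the 27 other fits. PSAN too was called lower on the deposited scale (-0.62, limma adjusted p = 0.0296), as were 2.56% of spots. The same held after median centring (-1.48, limma adjusted p = 3.26e-05), where 12.5% of spots were called lower. Of the 7 genes, PSBY and LPA19 were called in the same direction on all 3 scales. The share of all tested spots for which that was so was not counted.

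**Figure D5:**
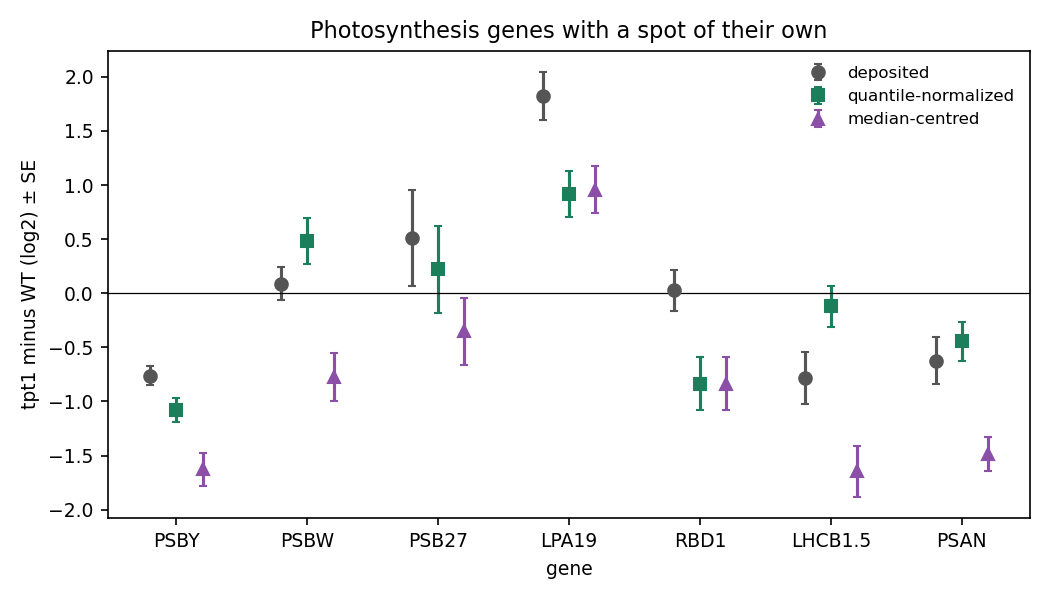
Log2 change (tpt1 minus WT) with its moderated SE for the 7 photosynthesis genes found with a spot of their own, on the deposited, quantile-normalized and median-centred scales. PSBY lies below 0 and LPA19 above 0 on each scale, while PSBW, PSB27 and RBD1 change sign between scales.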

How the data were processed

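The authors deposited linear spot intensities, made by steps not given in the sources used here. Zeros were set as missing, values taken as log2, and arrays quantile normalized because their medians lay more than 0.1 apart. Spots with at least 4 values above 0 in each group were tested with limma 3.58.1 (eBayes with a trend, R 4.3.3, statmod 1.5.0). P-values were adjusted by Benjamini-Hochberg across these spots, at a threshold of 0.05, and intervals are 95% intervals of the fit. Differences within an array and ranks were compared by exact permutation over samples (Python 3.11.15, matplotlib 3.10.9 for figures), with 3 tests of each kind. The fits without a block, with the sample number and with the set as a block were tested on simulated data. These were simulated as values after normalization, in which samples varied independently. That test does not cover samples correlated by number or by set, the other fits or the normalization.

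Spots were named from the platform annotation and a table of assembly TAIR10.1, used for names only, which held 96 of the 111 listed genes. Named were the 3 genes, listed genes with a tested spot of their own, and the 3 genes most like each in level and in deviations. Genes, lists and tests were chosen with earlier results of these data known.

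No 2 samples were identical. After quantile normalization and subtraction of group means, tpt1 and WT samples sharing a number had correlations of 0.47 to 0.61. For 12 of 12 samples this was the highest with any sample of the other group. By this the numbers pair the samples, but the labels do not say what a number marks. Neighbouring numbers of a group had correlations of 0.75, 0.24 and 0.66 in tpt1 (sets 1 to 3). In WT these were 0.13, -0.06 and 0.28. Alternatives were other scalings, blocks and filters, zeros kept with a pseudocount of 0.1, and samples or sets left out.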

Additional observations from a re-analysis of the deposited data

Results flagged for a closer look

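The change of PSBW between tpt1 and WT differed among the 3 sets of neighbouring sample numbers by the limma F test of the interaction (adjusted p = 0.000925 after quantile normalization, 0.0128 on the deposited scale and 0.0326 after median centring). The sets are runs of sample numbers and not groups that the labels name. Among 40 groups of 6 values of the 3 genes, their differences and the other photosynthesis genes, 0 held a sample that stood apart from the others, where 2 are expected by chance.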

How the results depend on the processing

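PSBY kept its direction and its call in all 27 other fits, among them the averages of neighbouring numbers with the set as a block (limma adjusted p = 0.00976), and leaving out 1 sample gave log2 changes of -1.13 to -1.02. Its rank percentile did so in all 14, at -8.51 to -7.83 points with 1 sample left out. PSBW was turned by median centring, to -0.77 without the replicate block and -0.77 with it (limma adjusted p = 0.0258 and 0.00228). It passed as higher at 0.48 with the set as a block (0.0299) and at 0.79 without set 1 (0.0417), not with the replicate block (0.0706) or with neighbours averaged and the set as a block (0.297), and lay at 0.35 to 0.61 with 1 sample left out. PSB27 was turned by median centring, to -0.35 without the replicate block and -0.35 with it (0.522 and 0.00195), passed at 0.51 with the deposited scale and the block (0.000129), and lay at 0.01 to 0.44 with 1 sample left out. Rank percentile differences with 1 sample left out ran from 0.14 to 0.27 for PSBW and from -1.41 to 1.46 for PSB27, reversed to above 0 without tpt1 5, tpt1 6, WT 1, WT 2 or WT 3.

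RBD1 turned on the deposited scale, to 0.026 without the replicate block and 0.026 with it, and LHCB1.5 turned to 0.062 without set 3. Between spots of an array, with 1 sample left out, PSBY minus PSBW lay at -0.95 to -0.77, PSBY minus PSB27 at -1.48 to -1.05 and PSBW minus PSB27 at -0.68 to -0.15. PSBW minus PSB27 was 0.26 after quantile normalization, and with the groups exchanged within numbers (replicate block) its -0.42 passed (exact p = 0.0312, adjusted over the 3 pairs). With neighbours averaged, -0.85 (PSBY minus PSBW), -1.27 (PSBY minus PSB27) and this -0.42 had an exact p of 0.25, the smallest that 3 sets allow. Against 364 spots called in the main fit, there were 1396 on the deposited scale, 906 with the replicate block, 866 with the set as a block, 122 with neighbours as a random block, 191 without set 1, 162 without set 2, and 2164 and 988 with the replicate block on the deposited and median-centred scales; leaving out 1 sample gave 272 to 338. The 2 fits with the block on these scales, the averaged neighbours within arrays and the interaction were chosen after the data had been seen. Signal over background could not be judged, since no background was used here.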
